A study of Mus musculus with 4 samples.

Results

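Motile axoneme genes are the genes of the beating core of motile cilia and sperm tails, taken here as every gene of the series whose symbol starts with Dnah, Dnai, Dnaaf, Rsph, Tekt, Cfap or Drc followed by a digit. The pattern matched 66 of the 19465 genes measured, of which 33 were Cfap, 13 Dnah, 7 Rsph, 5 Dnaaf, 5 Tekt and 3 Drc genes. Dnai genes were not analysed here. The 8 members with fewer than 100 unique molecular identifiers (UMIs, each a counted molecule) over all files were Cfap53, Cfap97d1, Cfap99, Dnah14, Dnah7c, Rsph3a, Rsph6a and Tekt3, and they are only counted. The other 58 are described. The name of the group fits the dynein, spoke and tektin genes better than the Cfap genes, some of which are known from primary cilia or other roles.

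The data are Visium spatial gene expression of formalin-fixed, paraffin-embedded sections of the whole head of wild-type mouse fetuses at E14.5 and E15.5, the days around closure of the palate. Each stage had 2 capture areas, each a single library. In each stage, replicate 1 had a capture area with 1 section (the single-section area), and replicates 2, 3 and 4 shared a capture area with 3 sections (the 3-section area). No treatment is given for any group. A spot covers a patch of tissue in which cells of different types can lie side by side. Because the 3 sections of an area came from 1 library, n is 2 areas per stage, and p-values measure only the spread between these 4 areas.

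A motile cilium is built on a ring of doublet microtubules around a central pair. Dynein heavy chains (Dnah) are the motors of the inner and outer arms that slide the doublets, and Dnaaf proteins fold and preassemble these arms in the cytoplasm. Radial spokes (Rsph) and the nexin-dynein regulatory complex (Drc) pass signals to the motors and link the doublets, tektins (Tekt) are filaments inside the doublet wall, and Cfap proteins are a mixed set from the doublet lumen, the arms and the central apparatus. In the head these cilia are known from multiciliated cells of the nasal airway lining and from the ependyma and choroid plexus of the brain ventricles. The cilia of olfactory sensory neurons carry odorant receptors, and in mammals they do not beat. The transcription factor Foxj1 and factors of the Rfx family, which bind X-box motifs made of a pair of facing arms, are known drivers of the program in which these genes are made.

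The promoters are shown first, as regulatory sequence that the rule for choosing members did not use. RefSeq promoters (GRCm38.p6, 250 bases before to 50 after the transcription start) were found by symbol for 54 of the 66 members. The element GTTGCC, 1 arm of an X-box, was searched on both strands. It lay in the promoters of 19 of the 54 members, 35.2% (95% exact binomial interval 22.7 to 49.4), and in 14.1% of all 27025 genes with a promoter in the table. At least 2 copies before the start were found in 6 of 54 members (11.1%) and in 0.862% of all genes, a comparison made after the values were seen. The full X-box was searched as GTTNCC and GGNAAC with either 2 or 1 bases between them, and GTTGCC is an arm of it where its N is G. The form with 2 bases between was found in 1 member, Cfap298, and in 0.529% of all genes, and the form with 1 base in 0 members and 0.311% of all genes. The forkhead motif GTAAACA was found in 4 members, 7.41%, against 4.05% of all genes. These matches describe letters and are not sites of binding. Stretches before the start are printed below 5′ to 3′ on the strand of the gene, with GTTGCC, or GGCAAC where the match is on the other strand, in capitals. They show the 2 members with most copies and, as examples, members of 4 families whose values are given later.

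Cfap298: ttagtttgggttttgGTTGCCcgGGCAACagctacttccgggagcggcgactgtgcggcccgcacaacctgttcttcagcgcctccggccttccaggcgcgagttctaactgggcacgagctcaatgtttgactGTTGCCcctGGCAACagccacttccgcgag
Cfap161: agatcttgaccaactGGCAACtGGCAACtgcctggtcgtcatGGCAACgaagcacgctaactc
Tekt1: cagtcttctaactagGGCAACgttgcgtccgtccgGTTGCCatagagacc
Dnah10: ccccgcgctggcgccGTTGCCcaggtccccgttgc
Drc1: tgactgctttcccttGGCAACggctt
Cfap46: tgggccccgtctctaGGCAACcgc
Cfap20: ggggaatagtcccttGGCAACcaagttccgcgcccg

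On GRCm38.p6 these stretches lie at chr16:90934889-90935052 (minus strand) for Cfap298, chr7:83794858-83794920 (minus) for Cfap161, chr11:72361883-72361932 (minus) for Tekt1 and chr5:124725050-124725084 (plus) for Dnah10. They lie at chr5:30281367-30281392 (plus) for Drc1, chr7:139683816-139683839 (minus) for Cfap46 and chr8:95434943-95434978 (minus) for Cfap20. Cfap298 held 4 copies in 2 facing pairs, with 2 and 3 bases between the arms, and the first pair is the full X-box. Cfap161 held 3 copies in the same direction.

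The 4 areas held 6357 tissue spots and 281039627 UMIs. Median UMIs per spot were 6752 in the E14.5 single-section area and between 45058.5 and 64051 in the others, so low genes in the first rest on few molecules. Section A of the E14.5 3-section area was also shallow, with a median of 10037.5. Values below are UMIs per 1000000 UMIs of the same spots (CPM). Probes differ between genes, so no level is compared from gene to gene. Where 4 values follow each other, they are those of the E14.5 single-section, E14.5 3-section, E15.5 single-section and E15.5 3-section areas.

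Summed over all tissue spots, the 66 members made up 464 CPM in the E14.5 single-section area, 637 in the E14.5 3-section area, 488 in the E15.5 single-section area and 522 in the E15.5 3-section area. The stages overlapped, and the log2 ratio of the stage means, E15.5 over E14.5, was -0.12, with a mean SD within a stage of 0.19. The sum was carried by a few genes with UMIs throughout the head. Cfap20, a protein at the inner junction of the doublet, gave 17.5% of all member UMIs. Together with Cfap298, Cfap36, Dnaaf5, Cfap410 and Cfap97 it gave 56.9%. The 13 dynein heavy chains gave 3.85%.

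By section, the sum ran from 477 CPM in section B to 641 in section A of the E15.5 3-section area, and from 573 in section B to 715 in section C of the E14.5 3-section area. Dynein heavy chains were at 29.7, 21.7 and 32.5 CPM in sections A, B and C of the E14.5 3-section area and at 29.4, 17.9 and 17.9 CPM in those of the E15.5 one. The single-section areas were lower, with 11.9 CPM for E14.5 and 15.5 CPM for E15.5. A summed list of 9 multiciliated cell markers, none of them a member, was at 117, 41.5 and 91.8 CPM in the same E14.5 sections and at 99.1, 35.7 and 48.3 CPM in the E15.5 ones. It was at 17.8 and 31.8 CPM in the single-section areas. In each 3-section area section B was lower than section A for both sums. Fewer cells of a type and less RNA per cell cannot be told apart in spots.

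Which spots carried the members was asked with sets of spots ranked by marker genes that hold no member. The multiciliated-marker spots were the 5% of spots with the highest share of UMIs from the 9 multiciliated markers. Among these markers were Foxj1, Mcidas, Ccno, Deup1, Dynlrb2 and Lrrc23. The paper of these data describes Lrrc23 as part of the radial spoke, so it is a cilium gene outside the symbol pattern. Members made in the same cells as the markers would be high in such spots, so their direction there was partly set by the choice. The marked spots numbered 50 and 49 in the E14.5 and E15.5 single-section areas and 110 and 98 in the matching 3-section areas. The median marker UMIs in them was 20.5, 15 and 20 in the E14.5 3-section, E15.5 single-section and E15.5 3-section areas, but 1 in the E14.5 single-section area, where many marked spots rest on a single marker molecule. Foxj1 was at 19.7 CPM in the marked spots of that area and at 51.9, 44.0 and 64.4 CPM in those of the others, and at 1.88, 3.08, 2.85 and 2.96 CPM in the unmarked spots.

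The members were at higher summed levels in the multiciliated-marker spots. All 66 summed to 717, 2206, 1116 and 1572 CPM in these and to 457, 552, 455 and 463 CPM in the other spots. Of the 58 described members, 7 had at least 50% of their UMIs in marked spots. The 60 members other than the 6 with most UMIs had a median of 3.27, 10.96, 4.66 and 7.88 UMIs per 10000 in a marked spot and 1.0, 1.68, 1.41 and 1.53 in an unmarked spot of the E14.5 single-section, E14.5 3-section, E15.5 single-section and E15.5 3-section areas. In the last 3 areas, fewer than 1% of unmarked spots reached the marked median (0.431%, 0.957% and 0.108%). In the E14.5 single-section area 11.8% did. In the map of the spots, most marked spots of these 3 areas lie in compact patches.

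**Figure D1:**
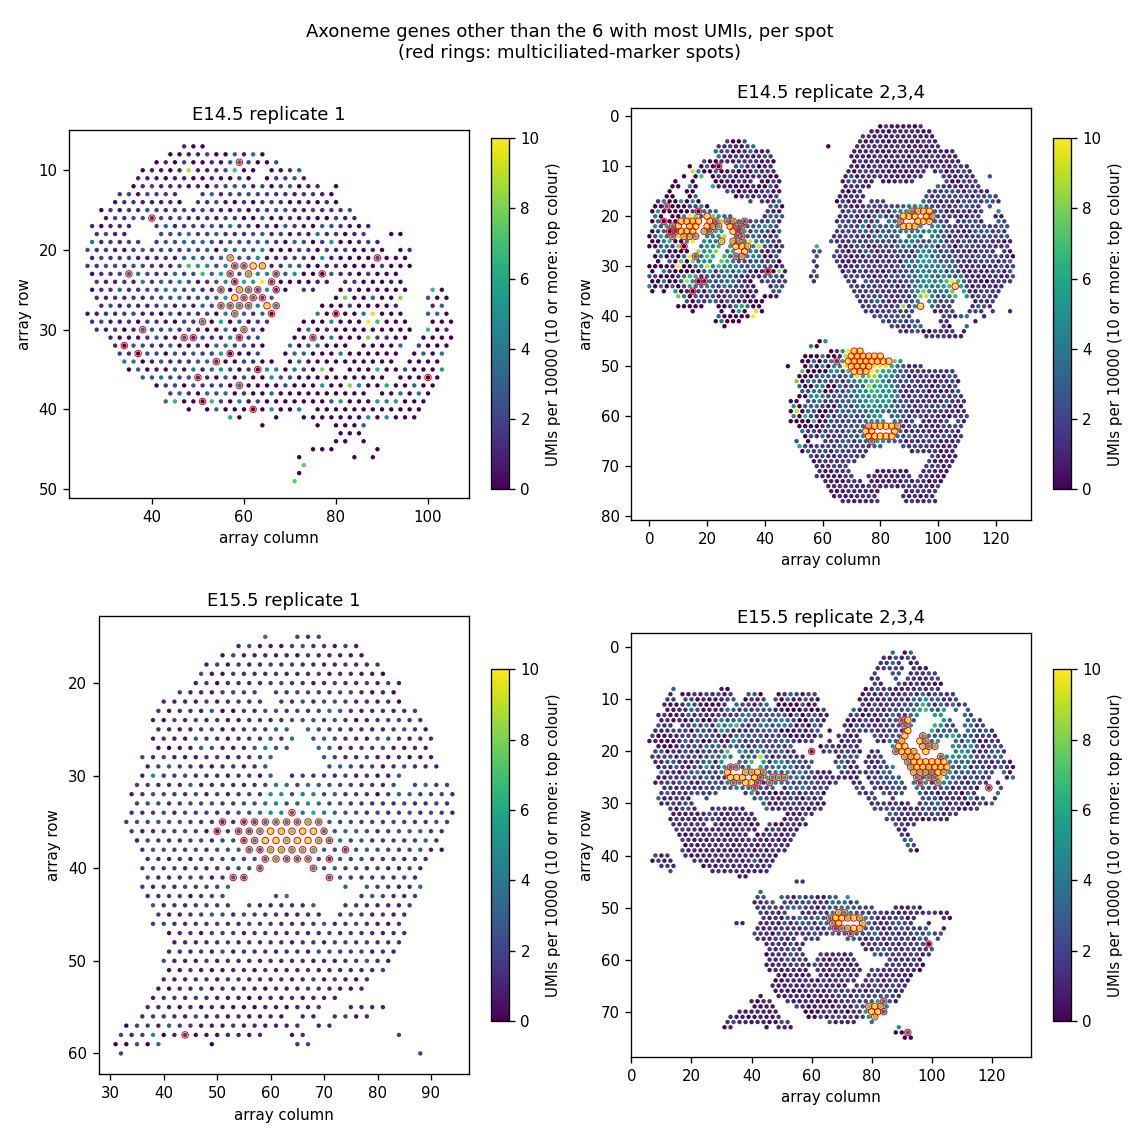
Each point is a spot of at least 1000 UMIs at its array column and row, coloured by the UMIs per 10000 of the 60 axoneme genes other than Cfap20, Cfap298, Cfap36, Dnaaf5, Cfap410 and Cfap97. Red rings are multiciliated-marker spots, which lie mostly on compact bright patches in 3 areas and are partly scattered in the E14.5 single-section area, where their median was 3.27 per 10000.

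Between the marked spots and the other tissue spots of the same area, 49 of the 52 members that passed the filter on low counts were higher and 0 lower (edgeR quasi-likelihood test, Benjamini-Hochberg adjusted p under 0.1 over all genes). Of all 13717 genes tested, 12.3% were called higher and 13.9% lower. Without the filter, 54 of the 58 described members were higher, against 8.2% of all genes. The members not called in that fit were Cfap20, Cfap97, Tekt5 and Dnah17. The median log2 fold change of the 52 was 2.76, beside 0.00 over all genes tested. A member that passed the filter only through the marked spots had to be higher there, so the count without the filter is the fuller one. With the markers reduced by Deup1, Dynlrb2 and Lrrc23, 49 of 52 tested members were higher, where 1815 of 13699 genes were.

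Of the 11 dynein heavy chains described, 9 were tested and all 9 were higher in the marked spots, with log2 fold changes from 1.18 to 4.61. Dnah12 (ENSMUSG00000021879, chr14:26693274-26891703 on GRCm38), an inner arm motor, was at 4.37, 16.04, 9.15 and 18.2 CPM in the marked spots of the E14.5 single-section, E14.5 3-section, E15.5 single-section and E15.5 3-section areas and at 0.134, 0.609, 0.453 and 0.675 in the unmarked spots. Every marked value lay above every unmarked one, although the first rests on 2 UMIs, and the log2 fold change was 4.61 ± 0.24 (SE; adjusted p = 1.31e-05). Dnah3, another inner arm motor, had the next highest fold change at 4.60 ± 0.32.

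Dnah5, a motor of the outer arm whose loss is a well-known cause of ciliary dyskinesia, was at 8.74, 21.6, 14.2 and 18.2 CPM in the marked spots and at 1.34, 2.30, 1.58 and 1.48 in the others (log2 fold change 3.27 ± 0.21, adjusted p = 3.55e-05). Dnah9, its partner in the outer arm, had 0 UMIs in the marked spots of the E14.5 single-section area and 18.0, 6.49 and 11.9 CPM in the other 3, against 1.21 to 2.26 CPM in the unmarked spots (2.60 ± 0.34). A count of 0 there allows up to 6.56 CPM, by counting error only, which lies below the levels of both 3-section areas. Dnah2, an inner arm motor, had the lowest fold change of the tested heavy chains (1.18 ± 0.20), and 11.9% of its UMIs lay in marked spots, where 5.05% of all UMIs lay. For Dnah12 that share was 58.1%.

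Dnah17, known from the outer arm of the sperm tail, was the heavy chain that went the other way. It had 130 UMIs in ranked tissue spots, of which 2.31% lay in marked spots, and without the filter its log2 fold change was -1.22 ± 0.82 (adjusted p = 0.427), which did not pass the test.

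All 5 Dnaaf genes were higher in the marked spots. Dnaaf1 was at 4.37, 11.05, 7.67 and 18.2 CPM there and at 0.738, 0.638, 0.610 and 1.09 CPM elsewhere (log2 fold change 3.85 ± 0.26). Dnaaf5, in contrast, was at 45.9, 69.7, 59.3 and 63.4 CPM in the marked spots and at 34.8, 37.2, 41.4 and 37.7 CPM in the others, which is 0.66 ± 0.11 on the log2 scale and still past the test (adjusted p = 0.00344). The intermediate members were Dnaaf3 at 2.36 ± 0.19, Dnaaf4 at 1.19 ± 0.23 and Dnaaf2 at 0.63 ± 0.17.

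All 5 described Rsph genes were higher in the marked spots. Rsph1, a spoke head protein, was at 19.7, 130.5, 52.5 and 84.8 CPM in the marked spots and at 6.10, 9.24, 5.46 and 5.64 CPM in the others, with no overlap (3.48 ± 0.26, adjusted p = 8.03e-05). Rsph4a, also of the spoke head, had a log2 fold change of 4.15 ± 0.25. Rsph9, the third spoke head protein, was at 17.5, 79.9, 35.1 and 44.5 CPM against 20.9, 27.4, 16.98 and 18.2 CPM, so the E14.5 single-section area did not follow the others (1.14 ± 0.20, adjusted p = 0.00436). Rsph10b was close to it at 1.14 ± 0.24.

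Tekt1, Tekt2 and Tekt4 were higher in the marked spots, with log2 fold changes of 2.97 ± 0.19, 0.90 ± 0.13 and 4.25 ± 0.30. Tekt1 was at 30.6, 57.2, 45.7 and 75.2 CPM in the marked spots and between 6.49 and 7.24 CPM in the others. Tekt5 was at 6.56, 7.49, 1.48 and 3.60 CPM in the marked spots and at 1.68, 2.79, 2.30 and 3.21 CPM in the others. It did not pass the test (0.65 ± 0.38, adjusted p = 0.308).

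Of the 30 described Cfap genes, 26 were tested, 24 were higher and 0 lower. Cfap65, known from the sperm tail, had the largest fold change among them: its marked spots were at 10.9, 84.7, 27.4 and 40.5 CPM and the others at 1.01, 4.09, 1.55 and 1.81 CPM (4.27 ± 0.17). Cfap161, whose promoter held the 3 copies printed above, reached 4.21 ± 0.22. Cfap52, a protein of the doublet lumen, was at 32.8, 76.3, 34.8 and 57.6 CPM against 2.15, 3.89, 2.41 and 2.99 CPM (4.11 ± 0.15).

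Among the broadly detected Cfap genes, Cfap298 had the largest difference, and those of Cfap36, Cfap410, Cfap20 and Cfap97 were small. Cfap298, needed for dynein arm assembly, was at 45.9, 207, 90.0 and 121 CPM against 48.1, 69.1, 49.5 and 43.2 CPM (1.14 ± 0.21, adjusted p = 0.00506). Cfap36 was at 0.58 ± 0.09 and Cfap410, a protein of the base of primary cilia, at 0.36 ± 0.10, both past the test. Cfap20 was at 89.6, 137, 127 and 90.9 CPM against 104, 101, 104 and 82.2 CPM (0.19 ± 0.11, adjusted p = 0.28), and Cfap97 was at -0.01 ± 0.11 (adjusted p = 0.972).

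All 3 Drc genes were higher. Drc3 was at 8.74, 56.0, 37.5 and 50.7 CPM in the marked spots and at 5.43, 6.79, 5.61 and 6.17 CPM in the others (2.76 ± 0.24). Drc7 reached 3.82 ± 0.33 with 0 UMIs in the marked spots of the E14.5 single-section area, and Drc1 reached 2.64 ± 0.25.

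**Figure D2:**
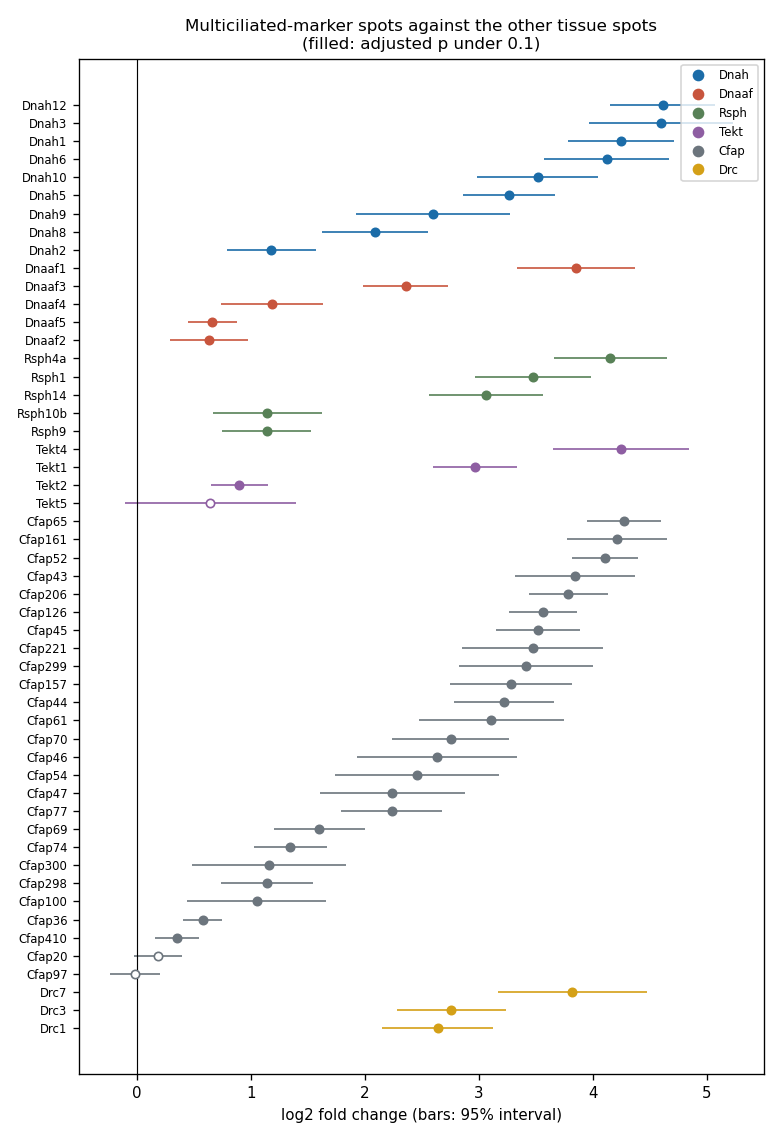
Log2 fold change of each tested member between multiciliated-marker spots and the other tissue spots of the same capture area, with 95% intervals, grouped by family, filled where the adjusted p was under 0.1. The 3 open points are Tekt5, Cfap20 and Cfap97, and Dnah12 is highest at 4.61.

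Other genes of cilia were read in the same fit. Of 53 further motile cilium genes in the files, 40 were tested, 37 were higher and 0 lower, with a median log2 fold change of 2.48. Dnali1, an axonemal dynein light intermediate chain, was at 4.94 ± 0.22, and Zmynd10, an assembly factor, at 3.79 ± 0.19. Of 52 genes of intraflagellar transport and the primary cilium, which nearly every cell type uses, 49 were tested, 29 were higher and 0 lower, with a median of 0.41. Of 7 regulators of multiciliated differentiation outside the marker list, 4 were higher: Gmnc (3.34 ± 0.29), Trp73 (1.03 ± 0.15), Rfx2 (0.95 ± 0.19) and Myb (0.91 ± 0.21). Rfx3, E2f4 and E2f5 did not pass.

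Of the 307 marked spots, 42 were also among the choroid-plexus-marker spots and 37 among the olfactory-neuron-marker spots. Without the choroid-plexus-marker spots, 47 of 51 tested members were higher, against 17.2% of all genes. With at least 5 marker UMIs asked of every marked spot, 46 of 49 were higher, against 11.5% of all genes.

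Levels were lower with distance from the marked spots. The 13 dynein heavy chains summed to 145, 46.7, 32.1, 23.0 and 17.1 CPM in the marked spots, in spots touching them, 2 spots away, 3 spots away and farther in the E14.5 3-section area. In the E15.5 3-section area the values were 118, 32.2, 21.5, 20.1 and 13.8 CPM, and in the E15.5 single-section area 75.8, 24.0, 18.7, 16.9 and 11 CPM. The sum was thus highest in the marked spots and lowest farthest away in each of these areas. In the E14.5 single-section area the values were 39.3, 13.4, 12.04, 10.54 and 10.3 CPM. The summed Dnaaf genes kept a larger part of their level far from the marked spots. In the E14.5 3-section area they were at 153 CPM in the marked spots and 52.1 CPM at 4 or more spots, where Drc genes went from 107 to 9.58 CPM. Dnaaf5 carried most of this sum, with 11112 UMIs in ranked tissue spots, 8.21% of them in marked spots. The share in marked spots was 7.76% for Dnaaf2 and 11.2% for Dnaaf4, but 45.8% for Dnaaf1 and 23.5% for Dnaaf3. The profile of the sum is therefore not that of each Dnaaf gene.

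**Figure D3:**
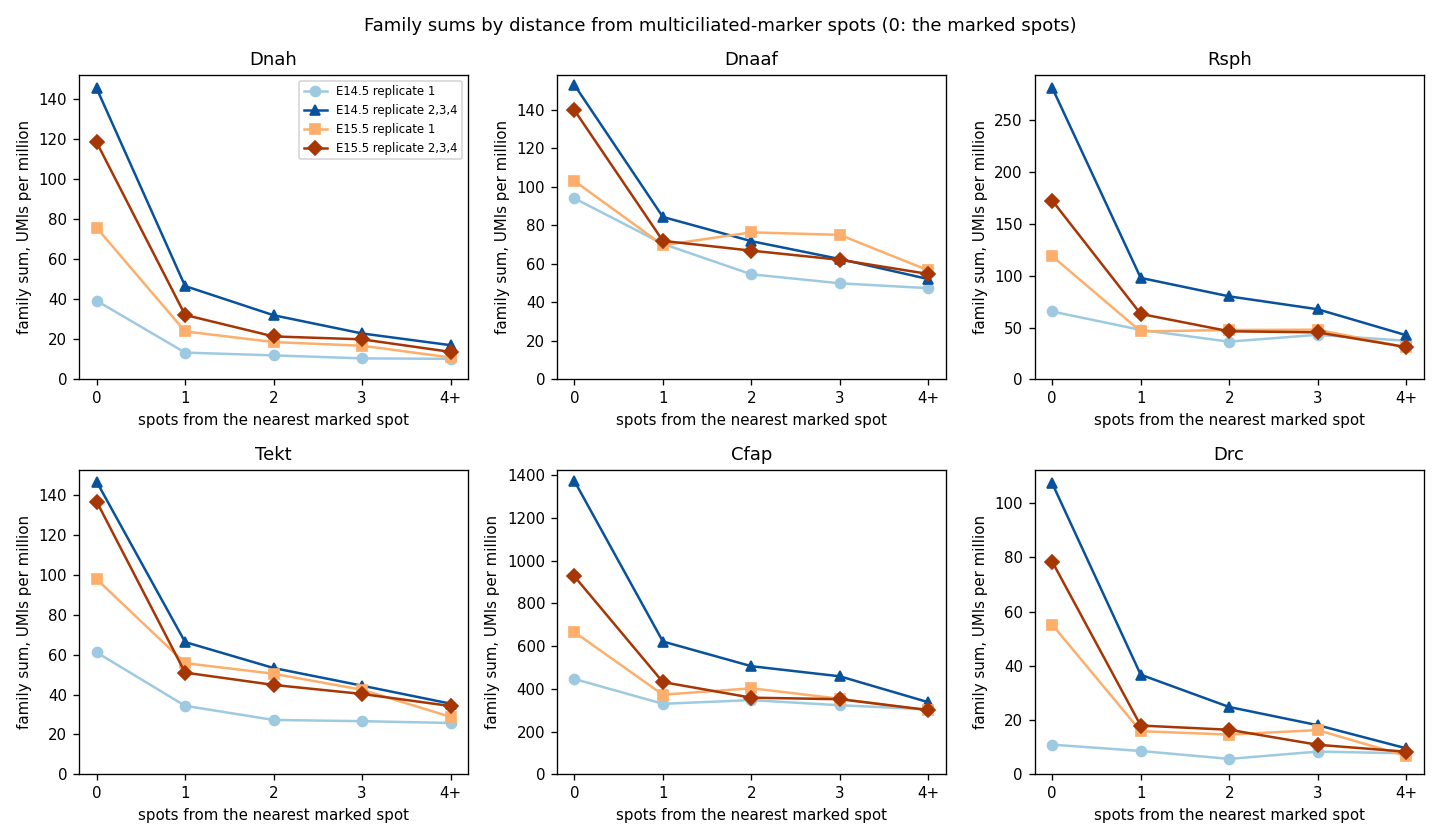
Summed CPM of each family against the distance in spots from the nearest multiciliated-marker spot (0 is the marked spots, 4+ is 4 or more), one line per capture area. Each family is highest at 0 in every area, and the Dnah sum of the E14.5 3-section area falls from 145 to 17.1 CPM.

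Olfactory sensory neurons were asked about because their cilia share parts of the axoneme without beating. The olfactory-neuron-marker spots were the 5% ranked highest by 10 markers such as Omp, without spots of the multiciliated or choroid plexus sets, and numbered 261. Omp was at 50.7, 42.5, 40.5 and 48.8 CPM in them and at 4.82, 5.20, 6.08 and 3.80 CPM in spots of no marked set. Against those unmarked spots, 26 of 41 tested members were higher and 0 lower, where 14.8% of all genes were called higher and 12.6% lower. Without the filter, 27 of the 58 described members were higher, against 10.5% of all genes. The summed multiciliated markers were at 40.9, 95.5, 32.6 and 47.0 CPM in the olfactory spots and at 8.88, 24.9, 12.2 and 22.5 CPM in the unmarked ones, with 6, 9, 9 and 9 of the 9 markers detected. Summed airway epithelium markers, 9 in the files, were at 988, 1023, 924 and 953 CPM in the olfactory spots and at 106, 127, 156 and 160 CPM in the unmarked ones. They were at 844, 660, 766 and 762 CPM in the multiciliated-marker spots, below the olfactory spots in each area. The part of airway epithelium in the olfactory result was not tested. Without olfactory spots that touch multiciliated-marker spots, 20 of 37 tested members were higher, against 12.4% of all genes.

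The radial spoke gene Rsph14 (ENSMUSG00000009070, chr10:74957477-75032586 on GRCm38) differed most. It was at 11.5, 11.8, 11.5 and 15.7 CPM in the olfactory spots and at 0.677, 0.782, 0.686 and 0.628 CPM in the unmarked ones, with no overlap and a log2 fold change of 4.18 ± 0.22 (adjusted p = 8.59e-05). In the multiciliated-marker spots it was at 4.37, 14.8, 11.2 and 9.11 CPM. Cfap44, a protein that tethers a dynein at its head, was at 27.8, 22.7, 23.8 and 27.3 CPM in the olfactory spots and at 2.26, 4.73, 1.89 and 2.01 CPM in the unmarked ones (3.23 ± 0.31, adjusted p = 0.000776).

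Drc7 followed at 2.95 ± 0.54, Cfap206 at 2.89 ± 0.26, Cfap65 at 2.52 ± 0.25, Dnaaf1 at 2.06 ± 0.34 and Dnah5 at 2.0 ± 0.23. Cfap44 and Cfap206 are named here after their values were seen. Cfap69, known to act in olfactory cilia, was at 1.35 ± 0.18. Cfap58, under the filter in this comparison, was at 3.26 ± 0.48 in the fit without it (adjusted p = 0.00303).

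Of the 5 heavy chains tested with the filter in the olfactory spots, 4 were not called. Dnah10, an inner arm motor, had 0, 7, 4 and 3 UMIs there, or 0, 1.59, 1.59 and 0.796 CPM, and was at 1.13, 1.28, 1.17 and 1.33 CPM in the unmarked spots (-0.05 ± 0.41, 95% interval -0.85 to 0.75). Dnah8 was at 0.08 ± 0.49, Dnah9 at 0.68 ± 0.41 and Dnah2 at -0.39 ± 0.21, and none passed the test. In the fit without the filter Dnah11 was called beside Dnah5, at 1.72 ± 0.45 (adjusted p = 0.0369), on 1, 6, 3 and 4 UMIs. Dnah3, Dnah12 and Dnah1 were at 1.70 ± 0.68, 1.44 ± 0.58 and 1.35 ± 0.56 in that fit and did not pass. Of the radial spoke genes, Rsph10b was at -0.28 ± 0.18 (adjusted p = 0.325). Where the list of other motile cilium genes was tested, 21 of 36 were higher and 1 lower, with a median of 1.01. The lower one was Tppp3, a tubulin-binding protein (-1.19 ± 0.11).

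Setting the multiciliated-marker spots directly against the olfactory ones, with spots of the choroid plexus or both sets left out, 27 of 39 tested members were higher in the multiciliated-marker spots and 0 lower, where 21.1% of all genes were called higher and 21.4% lower. Without the filter 40 of the 58 described members were higher, against 15.3% of all genes. The multiciliated-marker set was ranked by cilium genes and the olfactory set left such spots out. The direction of members made together with the markers was therefore partly set by the choice of spots. All 6 heavy chains tested with the filter were among the 27. Dnah10 differed most (3.84 ± 0.36, adjusted p = 5.29e-05), followed by Dnah12 (3.37 ± 0.31), Cfap52 (3.13 ± 0.24), Cfap126, a protein of the doublet and basal body (2.87 ± 0.17), and Cfap45, a protein of the doublet lumen (2.78 ± 0.15). The lowest values were Tekt5 (-0.93 ± 0.41), Rsph14 (-0.34 ± 0.28, 95% interval -0.88 to 0.20), Cfap69 (-0.19 ± 0.17), Cfap20 (-0.16 ± 0.09) and Cfap410 (-0.15 ± 0.10), none of which passed the test. With the multiciliated markers reduced by Deup1, Dynlrb2 and Lrrc23, the count was 16 of 37, against 9.18% of all genes.

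**Figure D4:**
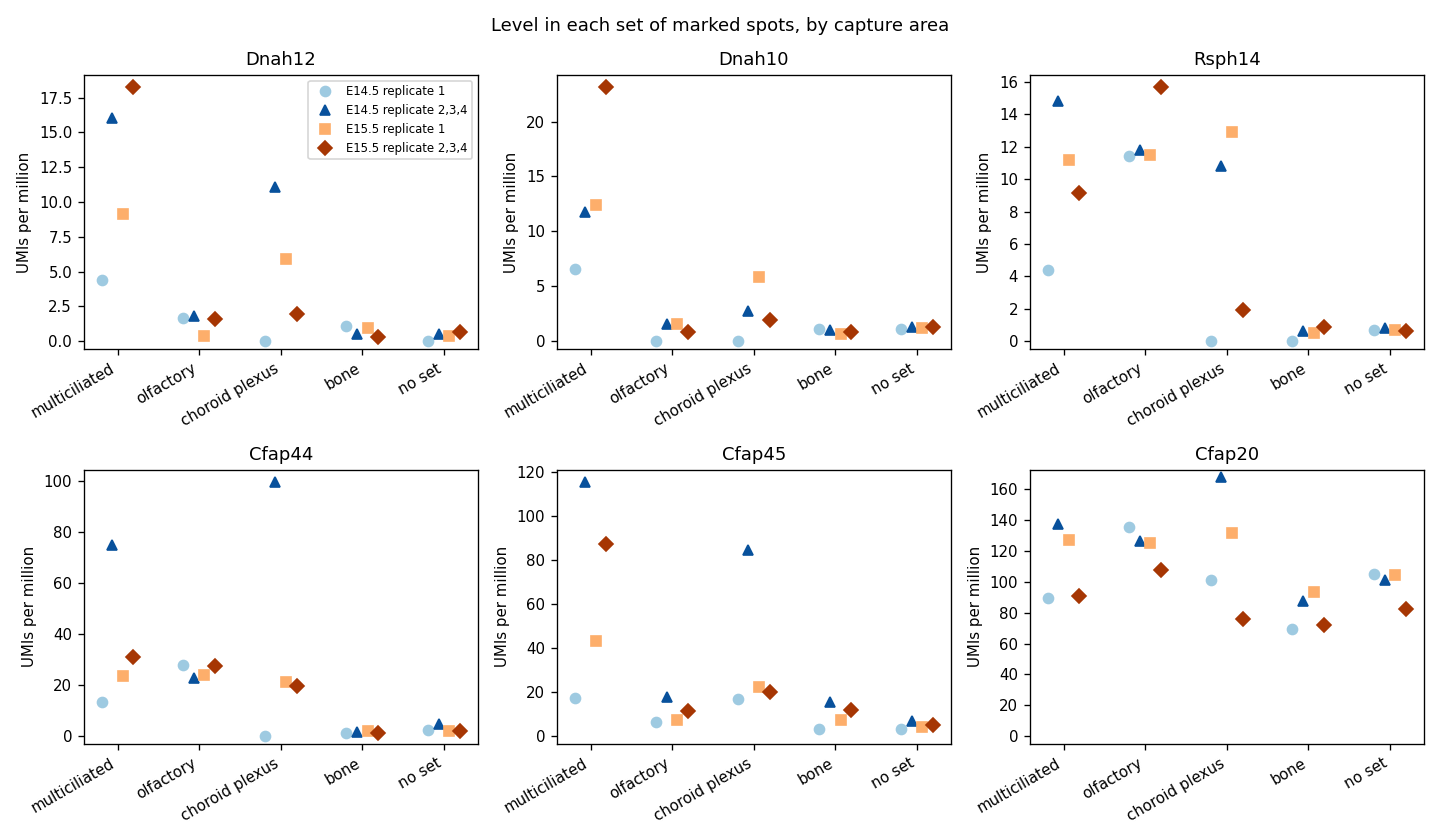
CPM of 6 members in the multiciliated, olfactory, choroid plexus and bone marker spots and in spots of no marked set, one symbol per capture area. Dnah12 and Dnah10 are at most 1.82 CPM in the olfactory spots, where Rsph14 lies between 11.5 and 15.7 CPM. Cfap20 lies between 107.7 and 135.8 CPM in the olfactory spots, above its 69.6 to 93.1 CPM in the bone spots. Its levels in the multiciliated and choroid plexus spots overlap these ranges.

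Choroid plexus spots were the 2% ranked highest by 6 markers such as Ttr, the thyroid hormone carrier that marks this tissue. Ttr was at 39842 and 7334 CPM in them at E14.5 and E15.5 but at 186 and 152 CPM in the single-section areas, so the label of this set goes against its defining marker there. In the choroid plexus spots of the single-section areas, airway epithelium markers were at 761 and 971 CPM and olfactory neuron markers at 448 and 559 CPM. In spots of no set of the same areas these lists were at 106 and 156 CPM and at 67.9 and 75.9 CPM. In the E14.5 3-section area Cfap44 was at 99.3 CPM in these spots against 4.73 in spots of no set, Rsph1 at 118 against 8.21, and Dnah9 at 28.8 against 2.23. In the E15.5 3-section area the same genes were at 19.4 against 2.01, 15.5 against 5.24 and 4.53 against 1.53. All 6 levels were higher in the choroid plexus spots. Bone markers were at 63.9 CPM in the choroid plexus spots of the E14.5 and 5131 CPM in those of the E15.5 3-section area, against 452 and 1080 CPM in spots of no set. The areas were not compared by a test, and the part of bone in these values was not tested. Of the 44 and 39 choroid plexus spots, 25 and 8 were also multiciliated-marker spots.

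Over the 4 areas, of which the single-section ones hold the airway and olfactory markers given above, 0 of 39 tested members were called in these spots, where 0.0524% of all genes were called in either direction. At an unadjusted p under 0.05 the edgeR test gave 25 members and 7.81% of all genes, and DESeq2 called 28 of 58 higher, against 1.1% of all genes. The median log2 fold change of the 39 was 1.85, beside -0.07 over all genes tested.

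Bone-marker spots gave a different picture. These were the 10% of spots ranked highest by 8 markers such as Ibsp, a bone matrix protein, without spots of the other sets, and numbered 573. They are compared with the same unmarked spots as the olfactory and choroid plexus sets, so these comparisons share their reference. Of 40 tested members, 4 were higher and 11 lower, where 26.9% of all genes were called higher and 25.6% lower. The shares of members were thus below the background for higher and close to it for lower calls.

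The 4 that were higher were all Cfap genes. Cfap45 was at 3.26, 15.6, 7.47 and 11.9 CPM in the bone spots and at 3.24, 6.75, 3.97 and 4.92 CPM in the unmarked ones (1.26 ± 0.17, adjusted p = 0.00127). Cfap126 was at 9.79, 6.79, 8.10 and 9.22 CPM against 2.11, 6.03, 3.25 and 5.97 CPM (0.96 ± 0.27, adjusted p = 0.0248). Cfap126 was higher in 4 of 4 areas. Cfap45 was higher in 3, and in the E14.5 single-section area it rested on 3 UMIs in the bone spots, with a ratio of 1.01 (95% exact interval 0.200 to 3.15). Cfap70, a protein linked to the outer arm, was at 2.18, 0.980, 1.27 and 1.39 CPM against 0.301, 0.415, 0.408 and 0.828 CPM (1.40 ± 0.31), on 2, 13, 8 and 13 UMIs. Cfap74, of the central apparatus, was at 0.47 ± 0.15 (adjusted p = 0.0424).

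The 11 that were lower in the bone spots were Dnah9 (-1.79 ± 0.31), Tekt5 (-1.43 ± 0.25), the radial spoke genes Rsph9 (-0.82 ± 0.11), Rsph10b (-0.64 ± 0.13) and Rsph1 (-0.57 ± 0.24), and 6 Cfap genes from Cfap46 (-1.40 ± 0.36) to Cfap298 (-0.25 ± 0.09). Dnah9 was at 0, 0.603, 0.477 and 0.322 CPM in the bone spots and at 1.35, 2.23, 1.5 and 1.53 CPM in the unmarked ones, with no overlap, although the 0 allows up to 3.26 CPM. Without the E14.5 3-section area 4 members were lower (17.1% of all genes), namely Dnah9, Tekt5, Rsph9 and Rsph10b, and the same 4 Cfap genes were higher. Without the E15.5 single-section area 2 members were higher, Cfap45 and Cfap70 (18.3% of all genes), and without the E15.5 3-section area 3 were, Cfap45, Cfap126 and Cfap70 (23.3% of all genes).

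Multiciliated markers in the bone spots were at 15.2, 22.1, 22.6 and 22.6 CPM, against 8.88, 24.9, 12.2 and 22.5 CPM in the unmarked spots. Leaving out bone spots within 2 spots of a multiciliated-marker spot kept Cfap45 (1.38 ± 0.23), Cfap126 (0.92 ± 0.22) and Cfap74 (0.45 ± 0.17) past the test, with Cfap70 under the filter. In that fit 14 of 34 tested members were lower, against 27.5% of all genes, and 3 were higher, against 24.9%. Without the nearby spots, Cfap126 was at 5.87 CPM in the bone spots of the E14.5 3-section area, just below its unmarked level given above. Cfap45 was at 1.60 CPM, on 1 UMI, in those of the E14.5 single-section area, also below its unmarked level. Each was above it in the remaining areas.

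**Figure D5:**
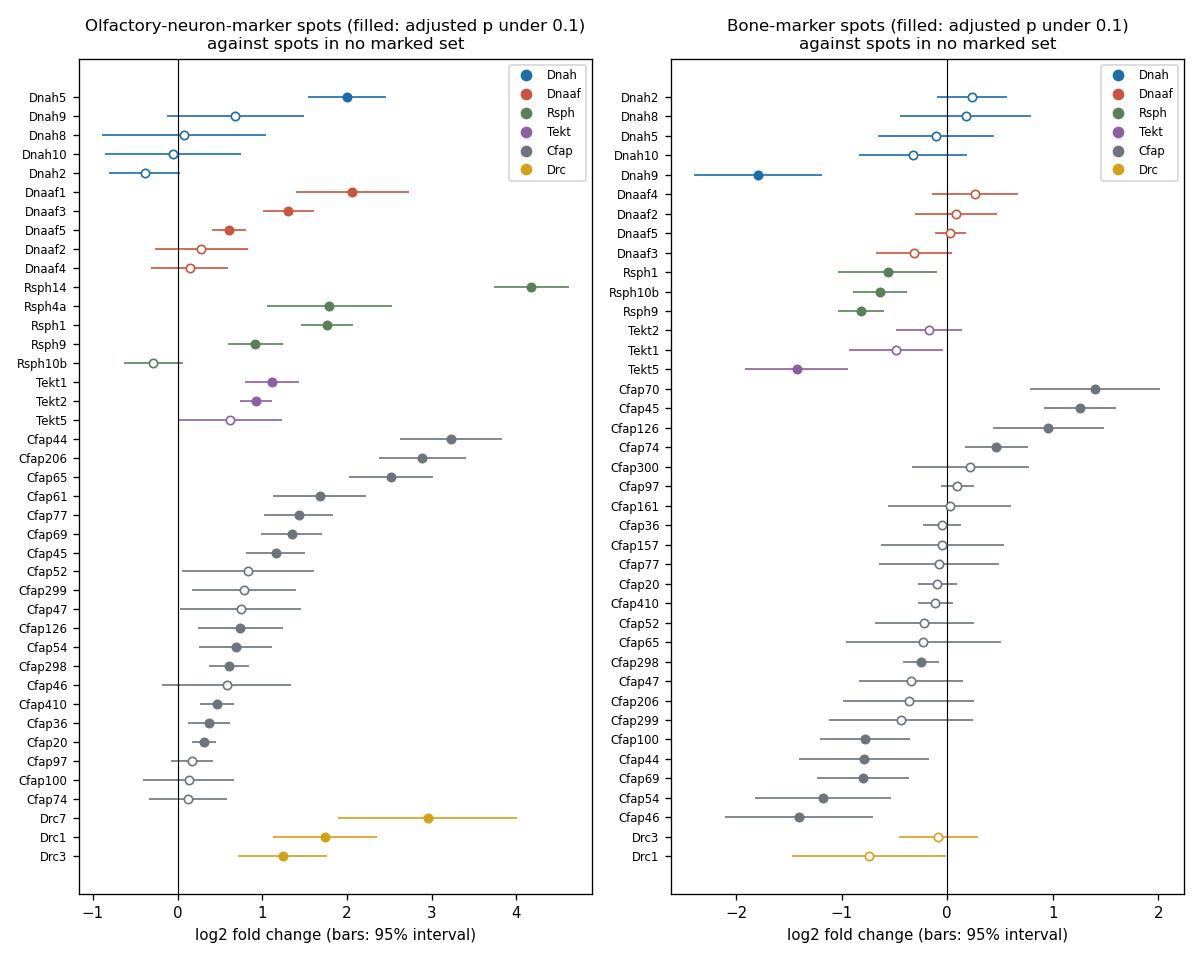
Log2 fold changes with 95% intervals of the tested members in olfactory-neuron-marker spots (left) and bone-marker spots (right), each against the same spots of no marked set, grouped by family and filled where the adjusted p was under 0.1. Rsph14 stands farthest right on the left at 4.18, and Cfap70, Cfap45, Cfap126 and Cfap74 are the filled points above 0 on the right.

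Between the stages, over whole areas, 0 of 58 members were called, and 0% of the 15609 genes tested were. At an unadjusted p under 0.05 edgeR gave 2 members, Cfap100 and Cfap57, and 930 genes (5.96%). Cfap100 was at 10.6 and 7.60 CPM at E14.5 and at 5.41 and 4.73 CPM at E15.5 (log2 fold change, E15.5 over E14.5, -0.89 ± 0.33, adjusted p = 0.769). DESeq2 called 0 members and 37 genes. The median log2 fold change of the members was -0.22, beside 0.00 over all genes tested.

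Within the multiciliated-marker spots 0 of 54 tested members and 0% of the 12815 genes were called between stages. At an unadjusted p under 0.05 edgeR gave 3 members, Cfap43, Cfap46 and Tekt5, and 829 genes (6.47%), so the share of members was near the background. DESeq2 called 0 members and 24 genes. Cfap43, the partner of Cfap44, had the largest difference, with 0 (up to 6.56 allowed) and 59.0 CPM at E14.5 and 5.31 and 11.4 CPM at E15.5, and the E14.5 areas lay on either side of the E15.5 ones (-2.17 ± 0.88, adjusted p = 0.766). Without the E14.5 single-section area, whose marked spots rest on few marker molecules, 6 members were lower at E15.5, against 1.41% of all genes. They were Cfap43 (-2.88 ± 0.40), Cfap46 (-2.20 ± 0.41), Drc7 (-2.07 ± 0.45), Cfap54 (-1.68 ± 0.34), Cfap44 (-1.55 ± 0.27) and Cfap65 (-1.41 ± 0.29). That fit compares 1 area with 2 and assumes that the lone area varies like the others. Without the E14.5 3-section area instead, 0 of 53 were called, 48 had a log2 fold change above 0 and the median was 1.23, against a median of -0.84 without the E14.5 single-section area. The direction between stages thus turned with the E14.5 area that was kept. In the E14.5 3-section area 25 of 110 marked spots were also choroid plexus spots. A stage fit over all areas without choroid-plexus-marker spots called 0 of 52 tested members and 0 genes. The median log2 fold change of the members was -0.19 in it and -0.44 in the main fit. Cfap43, Cfap46, Drc7, Cfap54, Cfap44 and Cfap65 were at -0.58, -0.73, -0.39, 0.11, -0.16 and -0.26 in it. The difference between these 2 fits was not tested.

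The difference between marked and unmarked spots was itself tested for a change with stage. It was called for 0 of 52 members, and for 0% of the 13717 genes. At an unadjusted p under 0.05 edgeR gave 1 member, Tekt5 (-1.64 ± 0.52, adjusted p = 0.9999), and 497 genes (3.62%). DESeq2 called 0 members and 3 genes.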

How the data were processed

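Visium probe libraries of fixed sections were sequenced and counted by the authors with Space Ranger 1.3.1 (single-section areas) and 2.0.0 (3-section areas, both per the file headers), and raw UMI counts per gene and spot were deposited without normalization. The genome build named in the submitters' processing notes is mm10. Spots over tissue were used, and spots under 1000 UMIs were left out of the ranked sets. Sections were connected groups of at least 100 spots, except in the E15.5 3-section area, where touching sections left 2 groups and all 3 sections were separated by k-means on spot coordinates. UMIs were summed per area and set and tested with edgeR 4.0.16 (quasi-likelihood, TMM, default filter, Benjamini-Hochberg over all genes, threshold 0.1) in R 4.3.3, with the area as a term between sets. The test was checked on simulated counts. Gene positions came from GENCODE M21 (GRCm38) by identifier, promoters from RefSeq GRCm38.p6. DESeq2 1.42.0 and other choices were alternatives. Intervals of log2 fold changes are normal 95% intervals. Members, marker lists and tests were chosen with earlier results of these data known. The named genes were, for each family, the 3 members with most UMIs, the 5 highest and 5 lowest folds in the multiciliated and multiciliated-against-olfactory comparisons, members past a stage test, and members called against the main direction. Others are named after their values were seen. No doublet caller was run, since spots hold several cells.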

Additional observations from a re-analysis of the deposited data

Results flagged for a closer look

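Outside the main measurement, 19 barcodes off tissue, all in the 3-section areas, held 419 UMIs of the axoneme genes among 562491 UMIs. This is above the limit of 3 that a count of 0 allows. The 8 barcodes of the E14.5 area held 209555 UMIs and the 11 of the E15.5 area 352936. At that depth a sum near its tissue level passes this limit in any case, so passing it says nothing particular to these genes. The share was 453 CPM in the E14.5 and 918 CPM in the E15.5 3-section area, where tissue spots were at 637 and 522 CPM. These barcodes entered no comparison.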

How the results depend on the processing

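Under the alternatives, the count of members higher in the multiciliated-marker spots stayed between 43 and 55, of 49 to 58 tested. In the same fits 1054 to 2343 of 13527 to 19156 genes were higher. Between stages in these spots the count was 2 with no filter on low counts and 0 to 6 with an area left out. In choroid plexus spots the count was 1 of 58 with no filter (13 of 19068 genes) and 28 of 58 by DESeq2 (383 of 19068 genes). With an area left out it was 0 to 1, where 0 to 29 genes were called. In bone spots the count was 8 to 13 in both directions with an area left out (2 to 4 higher, 4 to 11 lower). In the same fits 4697 to 7503 of 13747 to 14756 genes were called. Library size without TMM gave 3 members higher and 17 lower of 40, with the median of all genes at -0.16. There 2103 of 13816 genes were higher and 5452 lower. Multiciliated against olfactory spots gave 16 of 37 members higher without Deup1, Dynlrb2 and Lrrc23, where 1122 of 12221 genes were higher. With an area left out, 19 to 38 of 35 to 50 members were higher, where 1444 to 3029 of 11940 to 12630 genes were. With the top 10% of spots, 17 of 38 members were higher and 3 lower, which were Rsph14, Cfap20 and Cfap410. Over all 12450 genes of that fit, 2001 were higher and 1709 lower. Without the E14.5 3-section area Rsph14 was lower in this comparison too. The log2 ratio of the summed level between stages was -0.33, 0.12, -0.077 and -0.17 with each area left out. In promoters cut to the 250 bases before the start, GTTGCC was in 27.8% of members and 11.8% of all genes. With the replicate number as a block between stages, 0 members were called over whole areas and 0 in the multiciliated-marker spots, with 93 of all genes there. With only 2 numbers, correlations of deviations of 0.25 and 0.07 do not show that the numbers pair the areas. For 90 named gene and comparison pairs called in the main fit, 1210 of 1300 alternative fits kept the call, 90 kept the direction only and 0 reversed. These pairs are from the multiciliated, olfactory, bone and multiciliated-against-olfactory comparisons, and not from the stage or choroid plexus ones. Members not called in a main fit but called in an alternative are outside this tally. Rsph14, Cfap20 and Cfap410 in the multiciliated-against-olfactory comparison are examples. Chosen after seeing the data were the minimum of 5 marker UMIs, leaving out choroid plexus spots or spots near multiciliated-marker spots, and the choroid plexus test on the 3-section areas alone, which called 0 members. Depth limits low genes in the E14.5 single-section area.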

Other observations

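Some members were also unequal among tissues that hold few multiciliated markers. These values were picked after they were seen and have no test. Each set is the 5% of spots ranked highest by markers of a tissue, without multiciliated-marker spots, and its values are set beside the remaining unmarked spots of the same area.

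Tekt5 was at 3.51, 5.17, 6.18 and 6.64 CPM in skeletal muscle marker spots of the E14.5 single-section, E14.5 3-section, E15.5 single-section and E15.5 3-section areas, on 1, 44, 32 and 43 UMIs, and at 1.64, 2.58, 1.957 and 2.93 CPM elsewhere. It was higher in the muscle spots of each area. Rsph10b was at 14.3, 18.2, 21.2 and 19.7 CPM in cortical neuron marker spots and at 10.53, 10.2, 8.10 and 7.79 CPM elsewhere. Cfap100 was at 39.6, 4.25, 17.7 and 5.95 CPM in radial glia marker spots and at 9.27, 6.96, 4.52 and 4.26 CPM elsewhere, so the E14.5 3-section area did not follow the other 3. The radial glia list was not specific to that tissue. Its sum was at 1523, 1538, 1632 and 1438 CPM in bone-marker spots, and at 1176, 1355, 1517 and 1518 CPM in spots of no set. Whether the radial glia marker spots hold the same tissue in each area was not tested.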
